A study of Mus musculus with 3 samples.

Results

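The transcripts of Polycomb repressive complex 2 (PRC2) were examined in mouse embryonic stem (ES) cells in which the histone variant H2A.Z was supplied by a transgene. The 10 subunit genes were taken by symbol from a fixed list (Ezh1, Ezh2, Eed, Suz12, Jarid2, Mtf2, Phf1, Phf19, Rbbp4 and Rbbp7), and all 10 were found among the 15311 genes of the deposited table. Polyadenylated RNA was sequenced in 3 libraries. Both libraries of the first group, called wild type here, came from ES cells with a wild-type H2A.Z transgene fused to yellow fluorescent protein (YFP), and the lone K3R3 library came from cells whose H2A.Z-YFP had 3 lysines of its C-terminus replaced by arginine. In all of these lines the transgene was driven by a CMV promoter under an rtTA system induced with 1 µg/ml doxycycline, YFP-positive cells were sorted, and a lentiviral hairpin against the 3′ untranslated region of endogenous H2A.Z was present. The labels give the strain as V6.5 (129SvJaexC57BL/6), and the protocol names KH2 ES cells as the line that received the transgenes. Which of the hairpins each library carried is not stated in the labels, nor whether the wild-type replicates came from separate cultures. The p-values therefore reflect the spread of these samples alone, and that spread may be technical. The series title links mono-ubiquitylation of H2A.Z to poised chromatin, and the K3R3 form lacks lysines that can carry that mark.

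PRC2 places methyl groups on lysine 27 of histone H3, and its trimethyl form marks silenced developmental genes in ES cells. The catalytic subunit is Ezh2 or its paralog Ezh1, and it works only when bound to Eed, which reads the mark, and to Suz12, which holds the complex together. The histone chaperones Rbbp4 and Rbbp7 complete the core, while the Polycomb-like proteins Phf1, Mtf2 and Phf19 and the DNA-binding protein Jarid2 help to bring it to its targets.

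The table held between 21614693 and 25426228 counts per library, and the 10 subunits together took 0.437%, 0.469% and 0.439% of them in wild type 1, wild type 2 and K3R3. Levels are given as the deposited RPKM (reads scaled by gene length and by the library's reads), the only scale here on which genes can be compared with each other. Comparisons between libraries use counts scaled by the TMM method and given as CPM, counts relative to the library's effective size. All 10 ES cell markers on the list used were present. Their CPM summed to 6359 (wild type 1), 5296 (wild type 2) and 4198 (K3R3), of which Dppa5a alone gave 1862, 1189 and 1016. By edgeR 0 rose and 4 fell, among them Klf4, Fbxo15 and Dppa5a, against 2.02% and 0.542% of all genes tested. DESeq2 called 0 of the 10. In K3R3 7 of the 10 lay below both wild-type libraries, 1 above both and 2 between, against 34.2%, 33.9% and 31.9% of all genes. Most of these markers lay at 100 CPM or more, where 61.3% of genes lay below both and 8.02% above both. Of 15 fibroblast markers, listed because the lines were kept on feeder cells before a last passage without them, 13 were in the table, whose CPM summed to 150 (wild type 1), 117 (wild type 2) and 169 (K3R3). Of these 13, 9 lay above both wild-type libraries in K3R3, against 33.9% of all genes tested, 59.5% of genes at 0.5 to 2 CPM, 52.6% at 2 to 10 CPM and 25.9% at 10 to 100 CPM. The remaining 4 lay between. Among them Tagln gave 36.7 (wild type 1), 9.18 (wild type 2) and 19.5 CPM (K3R3), and Acta2 gave 27.3, 8.74 and 14.8 CPM. By edgeR 1 of the 13 rose and 0 fell, against 2.02% and 0.542% of all genes tested, and DESeq2 called 0. Their part in the results below was not tested. In bulk RNA, fewer cells of a type and less RNA per cell cannot be told apart.

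The subunits fell into an abundant and a scarce group, and the same genes formed each group in all 3 libraries. The lowest value of Ezh2, Eed, Suz12, Jarid2, Mtf2, Rbbp4 and Rbbp7 in any library was 63.5 RPKM (Jarid2), whereas the highest value of Ezh1, Phf1 and Phf19 was 9.17 RPKM (Ezh1). In the wild-type 1 library the abundant genes ranked between percentile 95.2 (Jarid2) and percentile 98.3 (Rbbp7) of all genes in the table. Phf1 ranked at percentile 39.7 there and Phf19 at percentile 41.6.

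**Figure D1:**
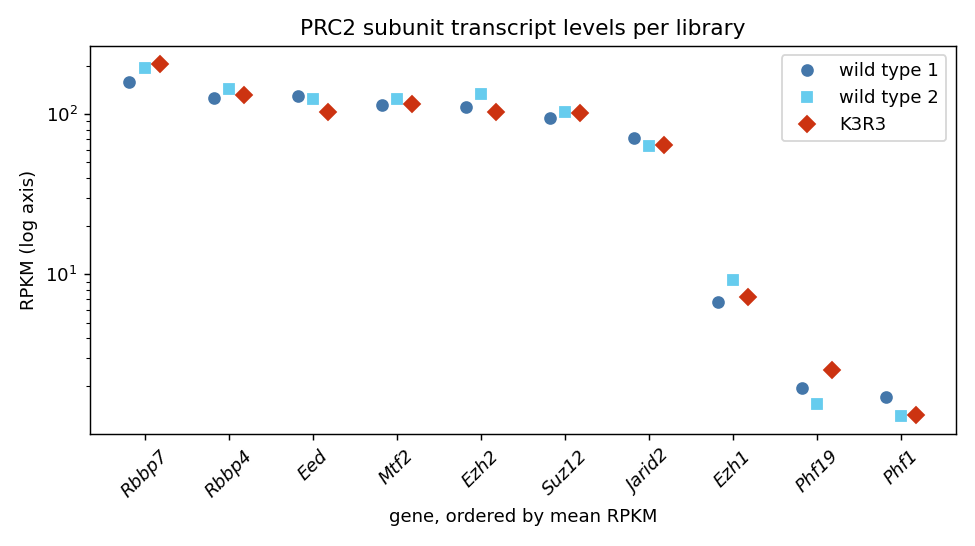
RPKM (log axis) of the 10 PRC2 subunit genes in each of the 3 libraries, ordered by mean level, with 1 point per library. The lowest point of the 7 abundant genes is at 63.5 RPKM and the highest point of the 3 scarce ones at 9.17 RPKM.

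Rbbp7 had the highest level, with 158 and 192 RPKM in wild type and 206 RPKM in K3R3, and its lowest value lay above the highest value of any other subunit. Rbbp4 followed with 126 and 143 RPKM in wild type and 132 RPKM in K3R3. Rbbp4, Eed, Mtf2 and Ezh2 came next to each other, and the range of each over the 3 libraries overlapped that of its neighbour. They could not be ordered, except that the lowest Rbbp4 value (126 RPKM) lay above the highest Mtf2 value (124 RPKM). The lowest Ezh2 value (103 RPKM) lay just above the highest Suz12 value (102 RPKM). Jarid2, Ezh1 and then the pair of Phf19 and Phf1 followed, each apart from the gene above it. Phf19 exceeded Phf1 within each library, but the ranges of these genes overlapped (1.56 to 2.54 RPKM for Phf19 and 1.30 to 1.71 RPKM for Phf1).

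Start-site sequences from RefSeq (GRCm38.p6, another build than the counts) were available for all 10 subunits, as 12 windows from 250 bases before to 50 after a start. E2F factors, which drive genes of DNA replication, are known activators of Ezh2 and Eed, so the E2F letters TTTCCCGC, TTTCGCGC, TTTGCCGC and TTTGGCGC were sought on both strands. They occurred in 3 of the 12 windows (Ezh2, Suz12 and Phf19), and 2.26% of the 32851 windows in the table held at least 1. The matches are shown with their flanks to let the sites be compared, the motif letters in capitals and each sequence in the direction of its gene:
Ezh2, chr6:47595009-47595038, minus strand: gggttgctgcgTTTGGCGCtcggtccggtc
Suz12, chr11:79992876-79992905, plus strand: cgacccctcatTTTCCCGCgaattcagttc
Phf19, chr2:34914166-34914195, minus strand: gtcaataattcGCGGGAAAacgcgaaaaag
Relative to the start site the matches began at position 3 in Ezh2, -219 in Suz12 and -208 in Phf19. In Phf19 the letters lie on the opposite strand. The windows were rich in CpG, with an observed to expected ratio of 0.952 for Phf19 and between 0.698 (Phf1) and 1.12 (Rbbp4) for the others apart from 1 of 2 Mtf2 windows (0.132), against a median of 0.384 in the table. A match of letters is no evidence of binding.

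Within each paralog family, gene-level shares were computed from RPKM, since the table does not resolve the transcript isoforms of a gene. Ezh2, the methyltransferase typical of dividing cells, supplied nearly all of the EZH transcript. It stood at 110 and 133 RPKM in wild type and 103 RPKM in K3R3, beside 6.71 and 9.17 RPKM in wild type and 7.21 RPKM in K3R3 for Ezh1. Its share of the pair was 93.9% ± 0.507 (SD, n = 2) in wild type and 93.5% in K3R3, and wild type 2 (93.5%) matched K3R3 to that precision. The Ezh2 to Ezh1 ratio was 16.4 and 14.5 in wild type and 14.3 in K3R3, so the order of the paralogs was the same in every library.

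Mtf2 held a still larger part of the Polycomb-like family, whose members bind unmethylated CpG-rich DNA. Mtf2 stood at 113 and 124 RPKM in wild type and 116 RPKM in K3R3. Its share of the summed Mtf2, Phf1 and Phf19 RPKM was 97.3% ± 0.631 (SD, n = 2) in wild type and 96.8% in K3R3, where wild type 1 alone gave 96.9%. Phf19 held 1.68% and 1.23% in wild type and 2.12% in K3R3, above both, while Phf1 held 1.46% and 1.02% in wild type and 1.11% in K3R3, between them. The ratio of Phf19 to Phf1 was 1.15 and 1.20 in wild type and 1.91 in K3R3. These scarce genes rest on few reads, with 119 to 136 counts per library for Phf1 and 222 to 350 for Phf19.

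The histone chaperones Rbbp4 and Rbbp7, which also serve in the NuRD, SIN3 and chromatin assembly complexes, showed no such dominance, and their balance in K3R3 lay outside the wild-type range. Rbbp4 supplied 44.4% and 42.6% of the summed RPKM in wild type and 39.0% in K3R3, a difference of -4.50 percentage points from the wild-type mean of 43.5% ± 1.22 (SD, n = 2). As shares of counts the values were 60.7% (95% Clopper-Pearson interval 60.2 to 61.3) and 59.0% (58.6 to 59.5) in wild type and 55.3% (54.9 to 55.8) in K3R3. The intervals do not overlap, but they cover counting error only and separate the wild-type libraries from each other as well. Rbbp7 is the more abundant gene per length and Rbbp4 the one with more counts, because the deposited length of Rbbp4 (4407 bases) exceeds that of Rbbp7 (2272 bases). The K3R3 shares of Ezh2 (93.46% against 94.25% and 93.53%) and Mtf2 (96.76% against 96.86% and 97.75%) also lay below both wild-type libraries. None of these shares was tested.

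**Figure D2:**
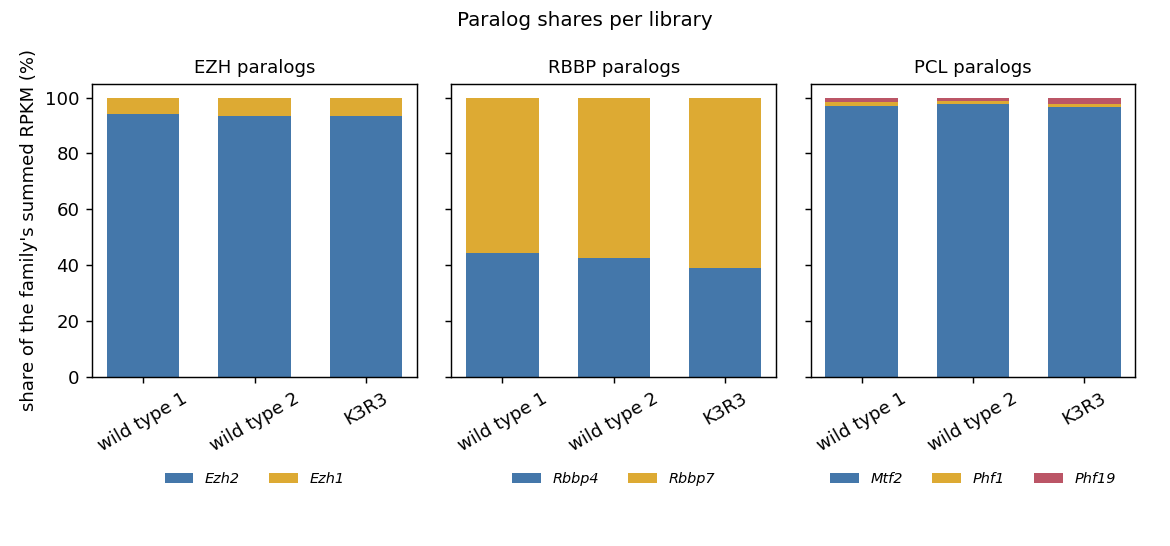
Share (%) of each gene in the summed RPKM of its paralog family, as stacked bars for wild type 1, wild type 2 and K3R3. The lowest share of Ezh2 is 93.5% and that of Mtf2 96.8%, and the Rbbp4 share is 44.4% and 42.6% in wild type and 39.0% in K3R3.

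A library's scale cancels in the ratio of 2 genes within it, so ratios of RPKM were also compared between subunits. Ezh2, Eed and Suz12 assemble in equal numbers in the complex. Eed stood at 1.36 and 1.22 times the RPKM of Suz12 in wild type and 1.01 times in K3R3. Ezh2 stood at 1.16 and 1.30 times Suz12 in wild type and 1.02 times in K3R3. The K3R3 library was thus below both wild-type libraries in either ratio to Suz12, while its Ezh2 to Eed ratio (1.00) lay between theirs (0.851 and 1.06). The ratio of Rbbp7 to Suz12 was 1.67 and 1.88 in wild type and 2.03 in K3R3. These ratios are among 12 computed, of which K3R3 lay below both wild-type libraries in 6, above both in 2 and between in 4. The 12 share genes with each other, and they were not tested. For the CPM of single genes, K3R3 lay below both for 34.2% of all genes tested and above both for 33.9%.

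No PRC2 subunit was called between K3R3 and wild type. In the quasi-likelihood test of edgeR, with p-values adjusted by Benjamini-Hochberg over all genes tested, 0 rose and 0 fell, and adjusted p lay between 0.285 and 1.00. Over all 13829 genes tested the same rule called 355, or 2.57%, with 280 higher (2.02%) and 75 lower (0.542%). With the library totals implied by RPKM these were 466 and 50. At an unadjusted p under 0.05, 1 subunit lay lower (Eed) and 0 higher, against 3.33% and 7.9% of all genes (11.2% in either direction), and DESeq2 called 0 subunits and 59 genes (0.427%). The fitted difference was below 0 for 8 of 10 subunits, for 52% of all genes and for 81.9% of genes at 100 CPM or more, the range that holds 7 of the 10. The subunits' median difference was -0.18 log2 units, beside -0.01 over all genes tested. It was -0.09 against wild type 1 alone, -0.17 against wild type 2 alone and -0.06 with the implied totals, which moved the median of all genes to 0.11. Fitted values carried standard errors (SE) between 0.17 and 0.44, and the spread came from the wild-type pair, with K3R3 assumed to vary like it.

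Eed, the reader of trimethylated lysine 27, showed the largest fitted difference with TMM scaling. With the implied totals that of Phf19 was larger (0.53). The counts of Eed were 8689 (wild type 1), 9760 (wild type 2) and 7786 (K3R3), or 413, 393 and 299 CPM. The wild-type values lay close together and K3R3 lay below both. The fitted log2 difference was -0.43 (SE 0.19, 95% interval -0.80 to -0.06), with an unadjusted p of 0.0218 and an adjusted p of 0.285 by edgeR. The Eed value was -0.31 with the implied totals. Against each wild-type library alone the log2 ratio was -0.47 (counting interval -0.51 to -0.42) and -0.39 (-0.44 to -0.35), whereas wild type 2 differed from wild type 1 by -0.07. Among the 2544 genes with a mean of 100 CPM or more, Eed stood at percentile 5.78.

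Ezh2, the catalytic subunit, came next among the abundant genes. Its counts were 9523 (wild type 1), 13367 (wild type 2) and 10062 (K3R3), or 453, 538 and 387 CPM. K3R3 was again the lowest, but the wild-type libraries differed from each other by about as much as K3R3 differed from wild type 1 (log2 0.25 and -0.23). The fitted log2 difference was -0.36 (SE 0.18, 95% interval -0.72 to 0.00), with an unadjusted p of 0.0503 and an adjusted p of 0.447 by edgeR. Its ratio to wild type 2 was -0.48 on the log2 scale, and the fitted value with the implied totals was -0.24.

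Suz12, the scaffold of the complex, differed least among the core subunits with TMM scaling (with the implied totals Rbbp4 did, at -0.03). Its level was 644 and 685 CPM in the wild-type libraries and 628 CPM in K3R3, with a fitted log2 difference of -0.08 (SE 0.18, 95% interval -0.43 to 0.26). It was -0.04 against wild type 1 and -0.13 against wild type 2, and the sign changed with the implied totals (0.04). Ezh1 stood at 43.7 and 58.9 CPM in the wild-type libraries and at 42.8 CPM in K3R3. K3R3 was thus close to wild type 1 (log2 -0.03, counting interval -0.16 to 0.10) and apart from wild type 2 (-0.46, interval -0.57 to -0.35), and the wild-type pair differed by 0.43. The fitted difference of Ezh1 was -0.26 (SE 0.26).

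**Figure D3:**
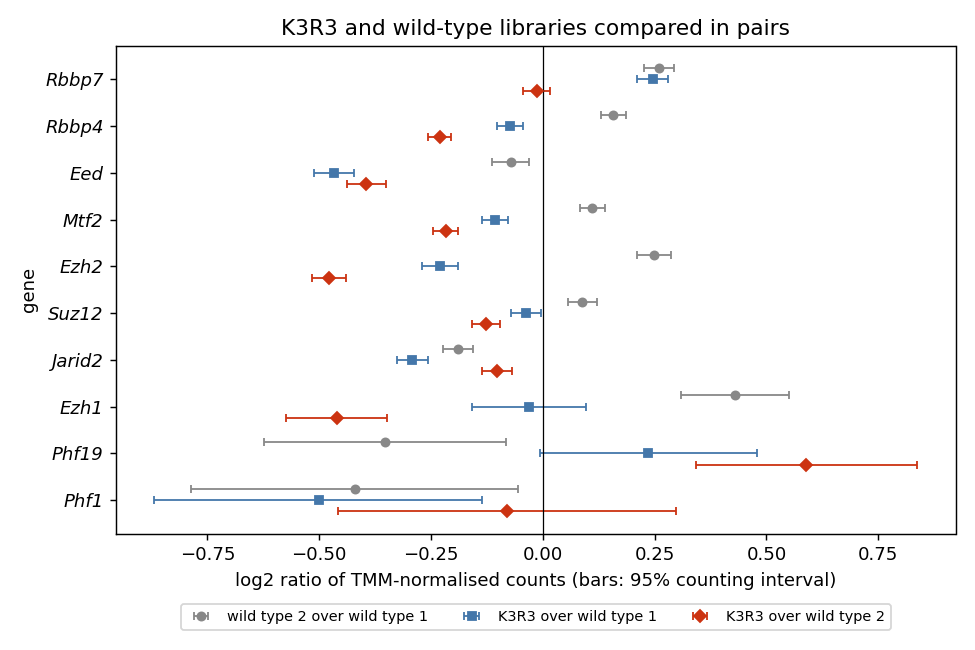
Log2 ratios of TMM-normalised counts for each PRC2 subunit gene, with 95% counting intervals as bars, for wild type 2 over wild type 1, K3R3 over wild type 1 and K3R3 over wild type 2. Eed lies at -0.47 and -0.39 in both K3R3 comparisons and at -0.07 within the wild-type pair, while Ezh1 lies at -0.03, -0.46 and 0.43.

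Of the accessory subunits, Jarid2 and Mtf2 were below both wild-type libraries in CPM in K3R3, and neither was called. Jarid2, which binds DNA and nucleosomes and aids recruitment, stood at 664 and 583 CPM in the wild-type libraries and at 543 CPM in K3R3 (fitted log2 -0.20, SE 0.18). Mtf2 stood at 829 and 895 CPM in the wild-type libraries and at 770 CPM in K3R3 (fitted log2 -0.16, SE 0.17). For Jarid2, K3R3 was nearer to wild type 2 (log2 -0.10) than to wild type 1 (-0.29), and for Mtf2 it was nearer to wild type 1 (-0.11 against -0.22). Their values with the implied totals were -0.08 and -0.04.

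Phf19 was the subunit with the largest positive difference and the only one of the 10 that the deposited class codes list as bivalent, meaning a promoter with both activating and Polycomb marks. The other 9 carry the code for active. The counts of Phf19 were 240 (wild type 1), 222 (wild type 2) and 350 (K3R3), or 11.4, 8.94 and 13.4 CPM. K3R3 exceeded both, with a log2 ratio of 0.24 to wild type 1 (counting interval -0.01 to 0.48) and 0.59 to wild type 2 (0.34 to 0.84). The fitted difference was 0.40 (SE 0.35, 95% interval -0.29 to 1.09) and was not called (adjusted p = 0.865 by edgeR). Bivalent genes of similar level (10 to 100 CPM, 419 genes) had a median of 0.22, and active ones a median of -0.05. Phf19 lies near the lower edge of that range, and at 2 to 10 CPM the medians were 0.67 for bivalent and 0.15 for active genes. Its paralog Phf1, an active gene by its code, stood at 6.47 and 4.83 CPM in the wild-type libraries and at 4.57 CPM in K3R3 (fitted log2 -0.30, 95% interval -1.17 to 0.56). The Phf1 value was -0.50 against wild type 1 alone and -0.08 against wild type 2 alone. For Phf1 and Phf19 the fitted 95% intervals, which rest on the dispersion trend, held differences of about 2-fold. The fitted intervals of the other 8 subunits lay inside -1 to 1.

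Rbbp4 stood at 865 and 965 CPM in the wild-type libraries and at 822 CPM in K3R3 (fitted log2 -0.15, SE 0.17), below both. Its log2 ratio was -0.07 to wild type 1 and -0.23 to wild type 2. Rbbp7 stood at 559 and 669 CPM in the wild-type libraries and at 663 CPM in K3R3 (fitted log2 0.11, SE 0.17). It was the 1 subunit whose K3R3 value lay between the wild-type libraries, above wild type 1 by 0.25 and level with wild type 2 (-0.01, counting interval -0.04 to 0.02). With the implied totals the fitted values were -0.03 for Rbbp4 and 0.23 for Rbbp7.

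In CPM, K3R3 lay below both wild-type libraries for 8 of the 10 subunits, above both for 1 (Phf19) and between them for 1 (Rbbp7). Of all genes tested, 34.2% lay below both, 33.9% above both and 31.9% between. DESeq2 size factors gave the same counts of subunits, against 35.7% of all genes below both and 32.8% above. The share below both was larger at higher expression, with 15.4% of genes at 0.5 to 2 CPM and 61.3% of the 2544 genes at 100 CPM or more, where the median difference was -0.13. Of the 7 abundant subunits 6 lay below both, with a median of -0.16. The count also depended on the scaling, since with the implied totals 2 of the 10 lay below both (Ezh2 and Eed), 2 above both (Phf19 and Rbbp7) and 6 between, against 19.2% of all genes below both and 48.7% above. No subunit lay 2-fold or more from both wild-type libraries, against 2.27% of the 12761 genes whose mean reached 1 CPM.

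**Figure D4:**
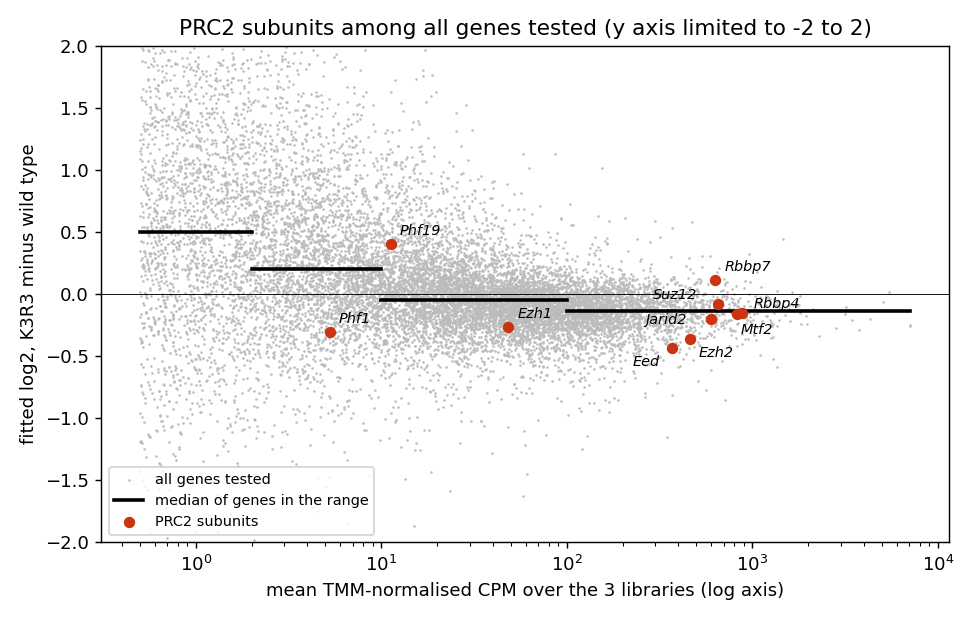
Fitted log2 difference (K3R3 minus wild type) against mean CPM (log axis) for all 13829 genes tested in grey, with the PRC2 subunits in red and the median of each expression range as a black line. The median is -0.13 at 100 CPM or more, Eed (-0.43) and Ezh2 (-0.36) lie below it, Rbbp7 (0.11) lies above it, and 231 genes fall outside the plotted range.

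The wild-type libraries differed from each other beyond counting error for all 10 subunits, whose counting intervals left out 0 with log2 ratios between -0.42 and 0.43. The median size of the difference was 0.22 within the wild-type pair, 0.23 between K3R3 and wild type 1 and 0.22 between K3R3 and wild type 2. For 5 subunits the wild-type pair differed by more than the fitted K3R3 difference. In the authors' deposited table the unadjusted p-values of the subunits ran from 0.0561 (Eed) and 0.113 (Ezh2) to 0.684 (Rbbp7).

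**Figure D5:**
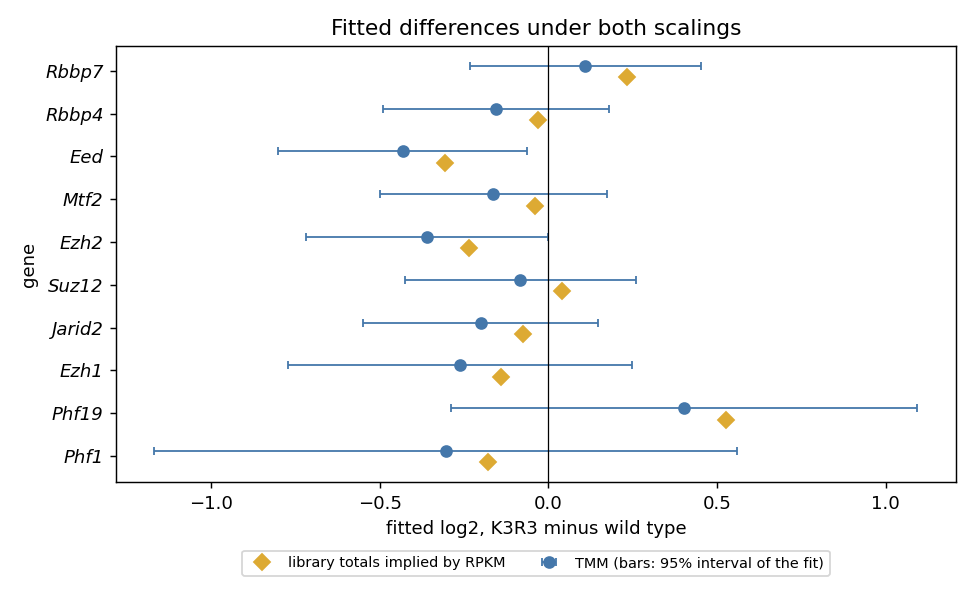
Fitted log2 difference (K3R3 minus wild type) of each PRC2 subunit gene with TMM scaling, with 95% intervals as bars, and with the library totals implied by RPKM as diamonds. The diamonds lie to the right of the circles for all 10 genes, Suz12 passes from -0.08 to 0.04, and Eed remains the lowest at -0.31.

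Other genes of the pathway were taken from fixed lists. Of 5 further PRC2 accessory genes tested, 0 rose and 0 fell by edgeR or DESeq2, with 1 higher (AU022751) and 1 lower (Aebp2) at an unadjusted p under 0.05. Aebp2, a DNA-binding cofactor that stabilises the complex, gave counts of 4623 (wild type 1), 4819 (wild type 2) and 4024 (K3R3) (22.9, 20.5 and 17.6 RPKM, fitted log2 -0.42, SE 0.20, adjusted p = 0.383 by edgeR). AU022751, a synonym of Ezhip, which encodes an inhibitor of Ezh2, gave counts of 5 (wild type 1), 11 (wild type 2) and 35 (K3R3) (fitted log2 1.95, SE 0.88, adjusted p = 0.318 by edgeR), at most 0.431 RPKM. AU022751 lay under 0.5 CPM in both wild-type libraries (0.238 and 0.443) and was tested only through K3R3 (1.34 CPM). Its higher value is thus not independent of the filter. E130012A19Rik, a synonym of Epop, which encodes an elongin-binding PRC2 partner, stood at 11.5 and 8.73 RPKM in wild type and 10.3 RPKM in K3R3. Lcor and Lcorl, whose loci encode PRC2-binding proteins, had fitted differences of -0.26 and -0.12. The sign depended on the wild-type library for Lcorl (0.15 against wild type 1 and -0.35 against wild type 2) and for E130012A19Rik (-0.29 and 0.12).

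The genes that act against or beside PRC2 gave no calls either. Kdm6a and Kdm6b, which remove methyl groups from lysine 27, had fitted log2 differences of -0.27 and 0.00 (for Kdm6b -0.06 against wild type 1 and 0.07 against wild type 2), and their Y-linked relative Uty, with 8 to 14 counts, was below the minimum for testing. Of 24 subunits of PRC1, the sister complex that ubiquitylates H2A, 0 rose and 0 fell (median 0.01, 13 above 0). Of 21 other partners of Rbbp4 and Rbbp7, 0 rose and 0 fell (median -0.14, 16 below 0), and of 22 S-phase genes 0 rose and 0 fell (median -0.10, 15 below 0). In each of these lists, the demethylases included, 0 members passed an unadjusted p of 0.05 by edgeR, and DESeq2 called 0. Over all genes tested edgeR called 2.57%, 11.2% passed that unadjusted p and 52% lay below 0. The share below 0 was 57.8% of genes at 10 to 100 CPM and 81.9% at 100 CPM or more. Of 37 developmental regulators known as Polycomb targets that were tested, 5 rose and 2 fell by edgeR. Over all genes tested, 2.02% rose and 0.542% fell. At the smallest p, Tbx3 lay lower and T and Hoxd13 higher. Some of the 5 that rose lay under 0.5 CPM in both wild-type libraries and were tested only through K3R3. Their rise is thus not independent of the filter. Of these 7 calls DESeq2 kept 1, Tbx3. Of these 37 genes 36 carry the bivalent code, and of all 1671 bivalent genes tested 175 rose and 9 fell, with a median of 0.65. The median of the 37 was 0.39, with 0.59 against wild type 1, 0.06 against wild type 2 and 0.35 between the wild-type libraries. Most of the 37 lay under 10 CPM. The median of all genes tested was 0.50 at 0.5 to 2 CPM and 0.20 at 2 to 10 CPM.

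For each of the main core subunits the genes closest in level over the 3 libraries were sought by Euclidean distance of log2(RPKM + 1). Ezh2 lay nearest to Gm15421 (0.0643) and Ppp1cb (0.0791), Eed to Dkc1 (0.0601) and Hmgb2 (0.107), and Suz12 to Calu (0.0502) and Supt16h (0.0697). Dkc1, which encodes the pseudouridine synthase dyskerin, stood at 128 and 127 RPKM in wild type and 106 RPKM in K3R3, beside 129, 125 and 103 RPKM for Eed.

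Some reads of these genes may also fit other genes. In the longest coding transcript of each subunit in GENCODE M21, stretches of 40 bases were sought in the transcripts of all other genes on either strand. Such stretches made up 36.1% of Rbbp4, 20.8% of Phf1, 18.1% of Rbbp7, 10.9% of Eed and 9.15% of Mtf2, 3.37% of Suz12 and 1.97% of Ezh2, and 0% of Ezh1, Jarid2 and Phf19. None was shared between 2 subunits of PRC2, so the paralog shares do not rest on reads common to the paralogs at this length. Those of Phf1 lay mainly in Cuta, those of Rbbp4 in Gm26722 and Sync and those of Eed in E230029C05Rik, all on the opposite strand. The longest shared part of Rbbp7 lay in Gm6382 on the same strand. The library kit kept strand, but the sources used here do not give the strand setting used for counting, so reads of these overlapping pairs cannot be told apart.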

How the data were processed

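For 3 ES cell libraries the authors deposited whole-number read counts per gene; the submitters' processing notes name HTSeq 0.5.4p1 and build mm9. The deposited RPKM values equal those counts over gene length and over a library total, called the implied total here (largest relative deviation 3.16e-07). The authors also deposited a fold ratio, the log2 of that ratio and a p-value without adjustment per gene; DESeq 1.10.1 is among the tools in the submitters' processing notes. By its values the ratio sets wild type over K3R3, and only the p-values are quoted. The sources used here do not give the aligner, annotation or strand setting.

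The tests used edgeR 4.0.16 (R 4.3.3) with TMM scaling, the 13829 genes whose mean CPM reached 0.5, and a two-sided quasi-likelihood test of K3R3 (n = 1) against wild type (n = 2), Benjamini-Hochberg adjusted over all genes tested at 0.05. That mean was taken over all 3 libraries, so a gene under 0.5 CPM in both wild-type libraries could pass through K3R3 alone. The prior degrees of freedom came out infinite, so the p-values rest on the dispersion trend. DESeq2 1.42.0, other scalings, filters and left-out libraries were alternatives. In counts simulated for this comparison on 13829 genes, 25.3% of 2-fold and 94% of 4-fold changes were called. The simulation gave every gene the same dispersion (0.0325) and placed changes at all expression levels. These shares therefore do not describe the abundant subunits, whose intervals are given above. Pairwise log2 ratios carry exact conditional 95% intervals, which cover counting error only, since reads without molecular identifiers are not independent molecules. The named genes are the 10 subunits, all other PRC2 accessory genes and demethylases on the lists, up to 3 called members of any other list, and the 2 genes closest to each of Ezh2, Eed and Suz12. Members and lists were chosen with earlier results of these data known. Tagln, Acta2 and the other genes named for shared sequence were chosen after their values were seen. Gene coordinates in mm9 are not used here.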

Additional observations from a re-analysis of the deposited data

How the results depend on the processing

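The call of 0 subunits held in each fit that gave a test (DESeq2 size factors, implied totals, no filter, a minimum mean of 2 CPM, the DESeq2 Wald test and edgeR's likelihood ratio test). Over all genes, the DESeq2 Wald test called 59 in place of 355 (33 higher and 26 lower). The subunits' median of -0.18 moved to -0.057 with the implied totals and to -0.055 as log2(RPKM + 1), and ranged from -0.17 to -0.090 when 1 wild-type library was left out. Of 90 alternative values of single subunits 3 changed sign: Suz12 to 0.041 with the implied totals and to 0.041 as log2(RPKM + 1), and Rbbp7 to -0.014 without wild type 1 (0.25 without wild type 2). By counts in place of RPKM the wild-type shares were 90.7% for Ezh2, 59.9% for Rbbp4, 98.2% for Mtf2 and 0.648% for Phf1. Without 1 wild-type library the difference in the Phf1 share ranged from -0.352 to 0.0902 points. With transcript lengths from GENCODE, an alternative chosen after seeing the data, the Ezh2 share was 93.6% and the Rbbp4 share 43.2%. No paired analysis was possible because K3R3 has 1 library. Leaving out a wild-type library leaves 1 a side, so it gives values and no count of calls. Phf1 and Phf19 rest on few reads, with at most 350 counts per library.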
